A study of Homo sapiens with 22 samples.

Results

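Cluster 2 of the WM983B library is a small group of melanoma cells that the deposited cell table calls primed, and it was taken here by its cluster number in that table. It held 91 of the 1449 WM983B cells, or 6.28% (exact binomial 95% interval 5.09 to 7.65), and 91 of the 731 cells called primed in this library (12.4%). The single-cell libraries of the whole series held 54001 cells. Cluster 2 was described against cluster 0, the other and larger primed cluster (640 cells), and against clusters 1 (628 cells) and 3 (90 cells). The cells were an untreated E9-D5 population of WM983B, a human melanoma line given as WM983B in the sample title and as WM983 in the cell line label, and E9-D5 was bottlenecked through single cells, so all clusters come from 1 clone. By the methods the cells were sorted into a well, left to divide and prepared as 1 library with 10x Genomics 3-prime chemistry. The study asked how drug-naive melanoma cells switch between a drug-susceptible state and a primed state from which resistance can grow. The other data used here are untreated barcoded WM989 cells, a second melanoma line also kept as a bottlenecked clone, and 8 WM989 libraries left untreated (Control) or given TGFB1, TGFBRi (LY2109761, an inhibitor of the TGF-beta receptors) or PI3Ki (GDC-0941, an inhibitor of PI3 kinase). By the methods the untreated barcoded WM989 cells came from a well sorted for high EGFR and NGFR and a well of mixed cells. Their share of primed cells is therefore not that of an unsorted culture.

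Primed cells are a drug-naive state of BRAF-mutant melanoma lines in which receptor tyrosine kinases, matrix genes and secreted factors are high and pigment-cell genes are often low. Melanoma cells in general can move between a melanocytic programme governed by MITF and SOX10 and less differentiated, more mesenchymal programmes. TGF-beta family ligands and autocrine cytokines such as LIF are among the signals that act on melanocyte-lineage cells.

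All counts are unique molecular identifiers (UMIs), and a level is the sum of a gene's UMIs over a cluster per 1000000 UMIs of that cluster (CPM). Cluster 2 held 6451393 UMIs, with a median of 68760 per cell against 63102.5 in cluster 0, 70605.5 in cluster 1 and 84240 in cluster 3. Cells of 1 library are not replicates and the clusters were called on these same genes, so no test was made between clusters, and every interval covers counting error only. Of all 1449 WM983B cells 7 shared a cell barcode with the untreated WM989 cells and 11 with the treatment experiment, and 0 of these were in cluster 2. With so few shared over all cells, this 0 cannot tell whether any cells were carried over. Markers of other cell types were summed by list, and COL3A1, CD3D, CD3E, KRT5 and KRT1 were at 0 in each cluster. Summed endothelial markers stood at 4.65 CPM in cluster 2 and at 1.16 to 1.93 CPM in the other clusters. Summed keratinocyte markers, nearly all of them KRT10, stood at 146 CPM against 148 to 190 CPM, and summed Schwann cell markers, led by S100B, at 1572 CPM against 1262 to 1546 CPM. Summed leukocyte markers stood at 84.6 CPM in cluster 2 and at 52.5 to 53.1 CPM in the other clusters, led by CD68 at 53.3 CPM against 31.9 to 40.7 CPM, and the summed fibroblast list at 126 CPM against 85.5 to 114 CPM, led by LUM. Their part in the results below was not tested.

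The 91 cells were not recovered as a cluster of their own in any of 4 new clusterings. Clustered anew on 2000 variable genes at a resolution of 0.5, 49 of the 91 cells fell together, in a cluster of 343 cells that held 258 cells of cluster 0, and 48 of these 49 were in G1. With the S and G2M scores of the cell table regressed out, a choice made after these values were seen, 81 of the 91 cells fell in 1 cluster of 137 cells, drawn from G1 (47), S (22) and G2M (12), at the same resolution. At a resolution of 1 with these scores removed, 79 fell in a cluster of 256 cells that held 170 cells of cluster 0. Among the 20 nearest neighbours of a cluster 2 cell, 50.4% were in cluster 2, 29.2% in cluster 0, 19.8% in cluster 1 and 0.549% in cluster 3 on average, and with the scores removed 56.9% were in cluster 2. Cluster 2 lay at an edge of the main body of cells, next to cluster 0.

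**Figure D1:**
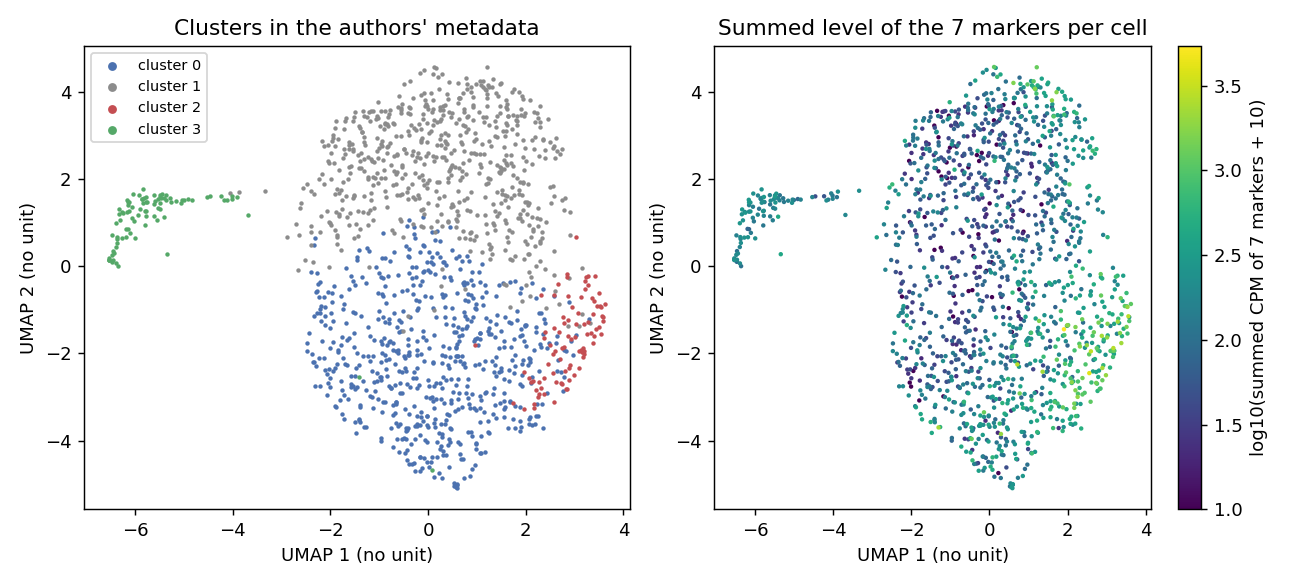
The 1449 WM983B cells at the UMAP positions of the deposited cell table, left by cluster and right by the summed CPM of the 7 marker genes on a log10 scale with 10 added. The 91 red cells of cluster 2 lie along the right edge of cluster 0, where the summed marker level is high, while cluster 3 lies apart at the left.

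Each of STC1, IGFBP3, LIF, ITGA10, APOD, INHBA and SERPINA3 was highest in cluster 2. These genes named the cluster, so their levels are a description. Their median CPM ratio was 2.23 on the log2 scale against cluster 0, 3.56 against cluster 1 and 2.49 against cluster 3, while the medians over all genes with at least 20 CPM in either cluster were -0.03, -0.02 and 0.08.

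**Figure D2:**
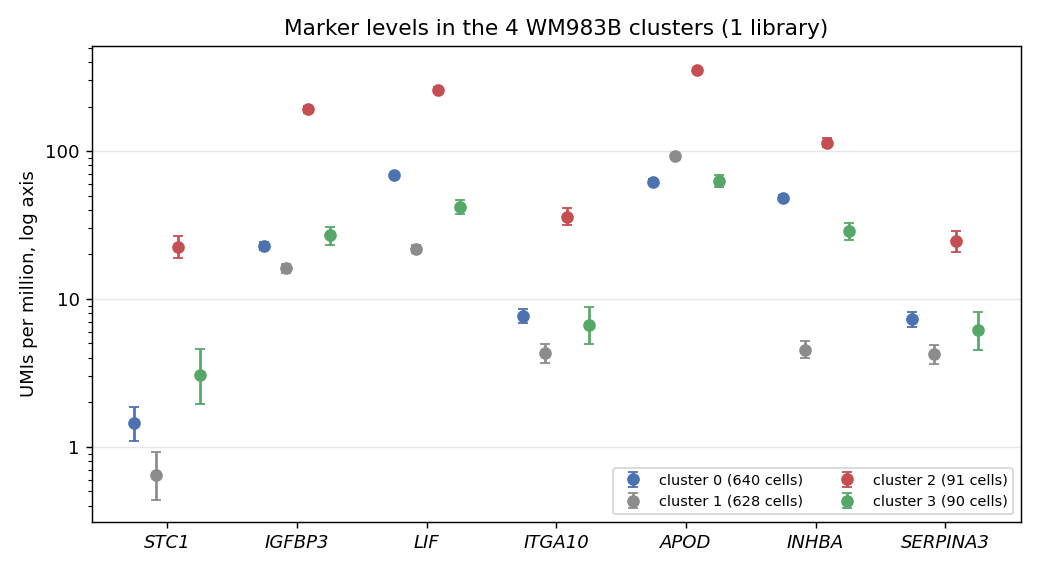
Levels of the 7 markers (CPM, log axis) in clusters 0 to 3 of the 1 WM983B library, with exact Poisson 95% intervals as bars. For every gene the red point of cluster 2 lies above the other 3 points, from 22.5 CPM for STC1 to 352 CPM for APOD.

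STC1 encodes stanniocalcin 1, a secreted glycoprotein hormone linked to calcium and phosphate handling. Its level was 1.44 CPM in cluster 0, 0.646 CPM in cluster 1, 22.5 CPM (19.0 to 26.4) in cluster 2 and 3.07 CPM in cluster 3. That was 15.6 times the level of cluster 0 (11.5 to 21.4). The cluster 2 UMIs of STC1 came from 34 of 91 cells (37.4%, 27.4 to 48.1), the lowest and the median cell were at 0 and the highest at 506 CPM. A cell without a UMI may still express the gene, so this is the share with a detected UMI only. The share was 5.16% in cluster 0, 2.23% in cluster 1 and 21.1% in cluster 3, and after each cell was thinned to 30000 UMIs it was 27.5% in cluster 2, 3.59% in cluster 0 and 8.89% in cluster 3.

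IGFBP3 encodes the main carrier of insulin-like growth factors in blood, which also acts on cells by itself. It lies at chr7:45912245-45921874 on the minus strand (GRCh38, GENCODE 44). IGFBP3 stood at 22.9 CPM in cluster 0, 16.1 CPM in cluster 1, 192 CPM (182 to 203) in cluster 2 and 26.9 CPM in cluster 3. Over the 91 cells of cluster 2 the lowest cell was at 0, the median at 54.4 CPM and the highest at 1505 CPM. Of cluster 0 cells 12.3% reached that median, of cluster 1 cells 5.10% and of cluster 3 cells 6.67%, so single cells overlapped.

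Promoters were searched for letters that AP-1 (TGANTCA), the HIF factors (ACGTG or GCGTG), E-box factors (CACGTG, which holds ACGTG) and TEAD factors (GGAATG) are known to bind, on both strands, from 250 bases before to 50 after the RefSeq start site (GRCh38.p14). The table held IGFBP3, ITGA10, INHBA and SERPINA3. IGFBP3 had 3 matches to GCGTG and ITGA10 had 1 match to GGAATG, and the other searches of these 4 promoters had no match. A GCGTG was found in 36.5% of all 35116 promoters of the table, a GGAATG in 14.0%, an ACGTG in 21.4%, an AP-1 match in 7.71% and a CACGTG in 7.26%. The matches are printed with their flanks because IGFBP3 and ITGA10 are among the genes furthest above the other clusters; capitals mark the match, which is a description of letters only.
IGFBP3, chr7:45921468-45921490, minus strand: gggctccggGCGTGcgcacgagg
IGFBP3, chr7:45921426-45921448, minus strand: ctcgagctgCACGCccccgagct
IGFBP3, chr7:45921314-45921336, minus strand: cgttccgggGCGTGtcctgggcc
ITGA10, chr1:145910127-145910150, minus strand: cactcctccCATTCCttccaactt

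LIF, leukaemia inhibitory factor, is a cytokine that signals through gp130, and INHBA encodes the beta A subunit of activin A, a ligand of the TGF-beta family. LIF (chr22:30240453-30246759) stood at 68.4 CPM in cluster 0, 21.8 CPM in cluster 1, 258 CPM (246 to 271) in cluster 2 and 42.0 CPM in cluster 3. LIF had a UMI in 86 of 91 cluster 2 cells (94.5%). The share was 67.5% in cluster 0, 47.5% in cluster 1 and 95.6% in cluster 3. After thinning it was 91.2% in cluster 2, 53.1% in cluster 0, 28.8% in cluster 1 and 62.2% in cluster 3. The median cell of cluster 2 was at 185 CPM and the highest at 1051 CPM. That median was reached by 9.53% of cluster 0 cells and by 0 of the 90 cluster 3 cells. INHBA (chr7:41667168-41705834) stood at 48.3 CPM in cluster 0, 4.55 CPM in cluster 1, 114 CPM (106 to 123) in cluster 2 and 28.6 CPM in cluster 3. Of its cluster 2 count 37.5% came from 1 cell at 2736 CPM, and the median cell was at 41.2 CPM. Without the highest cell of each cluster INHBA stood at 72.4 CPM in cluster 2 and 38.0 CPM in cluster 0, a ratio of 1.90 in place of 2.36, and without the 9 deepest cells of cluster 2 the ratio was 1.61. INHBA had a UMI in 63 of 91 cluster 2 cells (69.2%) and in 38.1% of cluster 0 cells, or 54.9% and 29.5% after thinning, and 17.7% of cluster 0 cells reached the median of cluster 2. Detection was no lower in cluster 3, with a UMI in 75 of 90 cells (83.3%), or 55.6% after thinning. Of cluster 3 cells 25.6% reached the median of cluster 2. Against cluster 1 the ratio was 19.7 without the highest cells.

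The remaining markers were an adhesion receptor, a lipid carrier and a protease inhibitor. ITGA10 (chr1:145891208-145910111), the alpha 10 integrin subunit that pairs with beta 1 to bind collagen, stood at 7.67 CPM in cluster 0, 4.29 CPM in cluster 1, 36.0 CPM (31.5 to 40.9) in cluster 2 and 6.68 CPM in cluster 3. Its median cell in cluster 2 was at 17.6 CPM and its highest at 299 CPM. APOD (chr3:195568705-195584033), apolipoprotein D, a lipocalin that carries small lipids, stood at 61.8 CPM in cluster 0, 92.1 CPM in cluster 1, 352 CPM (338 to 367) in cluster 2 and 62.8 CPM in cluster 3. APOD was the one marker found in all 91 cells, from 18.1 CPM in the lowest through 258 CPM in the median to 1451 CPM in the highest, and it was higher in cluster 1 than in cluster 0. SERPINA3 (chr14:94612384-94624055), alpha-1 antichymotrypsin, stood at 7.29 CPM in cluster 0, 4.22 CPM in cluster 1, 24.5 CPM (20.8 to 28.6) in cluster 2 and 6.15 CPM in cluster 3. SERPINA3 had a UMI in 43 of 91 cluster 2 cells (47.3%) and 22.3% of cluster 0 cells, or 33.0% and 15.8% after thinning.

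Cells of cluster 2 differed in how many of the 7 markers had a UMI, a count that follows depth, so that a marker without one may still be expressed. Of the 91 cells, 7 had a UMI of all 7 markers (7.69%, or 3.30% after thinning), 22 of 6 and 33 of 5, and no cell had fewer than 2. No cell of cluster 3 had fewer than 2 either. In cluster 0 all 7 were found in 2 of 640 cells. After thinning, 41.8% of cluster 2 cells had at least 5 of the markers, against 5.31% in cluster 0, 0.478% in cluster 1 and 12.2% in cluster 3. Summed over the 7 genes the lowest cell of cluster 2 was at 150 CPM, the median at 795 CPM and the highest at 4084 CPM, while the median cell was at 125 CPM in cluster 0, 81.8 CPM in cluster 1 and 164 CPM in cluster 3. Of the cluster 0 cells 269 of 640 reached the lowest cell of cluster 2, as did 189 of 628 cluster 1 cells and 55 of 90 cluster 3 cells. The lower quartile of cluster 2, at 479 CPM, was reached by 66 cluster 0 cells (10.3%). It was reached by 27 cluster 1 cells (4.30%) and by 0 cluster 3 cells. The summed level of cluster 2 thus overlapped with that of each other cluster.

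Within cluster 2 the markers did not move as one. Across the 91 cells, which share a library and differ in depth, IGFBP3 went with APOD (Pearson's r 0.52, Spearman's rho 0.54) and LIF with INHBA (0.39 and 0.23), whereas IGFBP3 and LIF were nearly unrelated (0.02 and 0.03). STC1 had values of 0.15 and 0.31 with IGFBP3 and of -0.03 and 0.24 with INHBA. The INHBA values include the 1 cell that held 37.5% of its count. No marker groups are claimed from these pairs. SERPINE2, a secreted serine protease inhibitor, went against the pigment gene PMEL (-0.34 and -0.48). Both genes also differed with depth. SERPINE2 stood at 4127 CPM in the 45 shallower cells of cluster 2 and 2691 CPM in the 46 deeper ones, and PMEL at 266 and 448 CPM. The part of depth in this pair was not tested. By the deposited phase calls, STC1 stood at 29.6 CPM (23.8 to 36.4) in the 48 G1 cells, 26.8 CPM (19.8 to 35.5) in the 24 S cells and 3.78 CPM (1.39 to 8.22) in the 19 G2M cells, where it had 6 UMIs. IGFBP3 stood at 286, 151 and 57.3 CPM in the same order. LIF was level across the phases, at 264 CPM in G1, 236 CPM in S and 273 CPM in G2M.

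With the 7 markers among them, 37 genes were more than 2 times as high in cluster 2 as in each of the other clusters, of the 6569 genes with at least 20 CPM and a UMI in 25% of cluster 2 cells (0.563%). These values chose the genes, so the count is a description. The genes described here were picked from the 37 after their values were seen, and no gene group is claimed from them. SLC5A3, which carries myo-inositol, stood at 290 CPM in cluster 2 against 65.7 to 89.2 CPM elsewhere, SLC26A2, a sulfate transporter, at 224 CPM against 50.8 to 90.1 CPM, SLC16A6, of the monocarboxylate transporter family, at 151 CPM against 40.3 to 69.4 CPM, and TRPV4, a calcium channel, at 65.9 CPM against 15.8 to 23.8 CPM. SLC5A3 (chr21:34073578-34106260) lies within MRPS6 (chr21:34073224-34143034) on the same strand, so the reads of these 2 genes may be shared and neither value is certain. SLC26A2 had a UMI in 98.9% of cluster 2 cells and 94.4 to 96.1% of the others, so the difference lay in level.

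PLAUR, the urokinase receptor, stood at 251 CPM in cluster 2 against 38.6 to 97.1 CPM in the other clusters. SERPIND1, heparin cofactor II, stood at 108 CPM against 14.0 to 38.5 CPM, and PLA1A, a phosphatidylserine phospholipase, at 53.3 CPM against 9.82 to 21.4 CPM. FCER1G, the signalling chain of Fc receptors, which is best known from leukocytes, stood at 35.0 CPM against 4.55 to 7.08 CPM, and the leukocyte list given above was also highest in cluster 2. Its part in the FCER1G level was not tested. CST1, a cystatin, stood at 76.9 CPM against 13.5 to 33.3 CPM and belongs to a family of near-identical genes between which reads can be split wrongly. DUSP5 and IER3, targets of ERK signalling, stood at 22.8 and 749 CPM in cluster 2 against 9.84 and 374 CPM in cluster 0. CDKN2B, an inhibitor of CDK4 and CDK6, stood at 45.7 CPM against 15.0 to 21.1 CPM. NDRG1, a gene induced by low oxygen and by differentiation, stood at 28.1 CPM against 5.51 to 10.9 CPM. Just inside the limit of 2 was PDLIM4, at 32.1 CPM against 16.0 CPM in cluster 0, beside IER3.

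**Figure D3:**
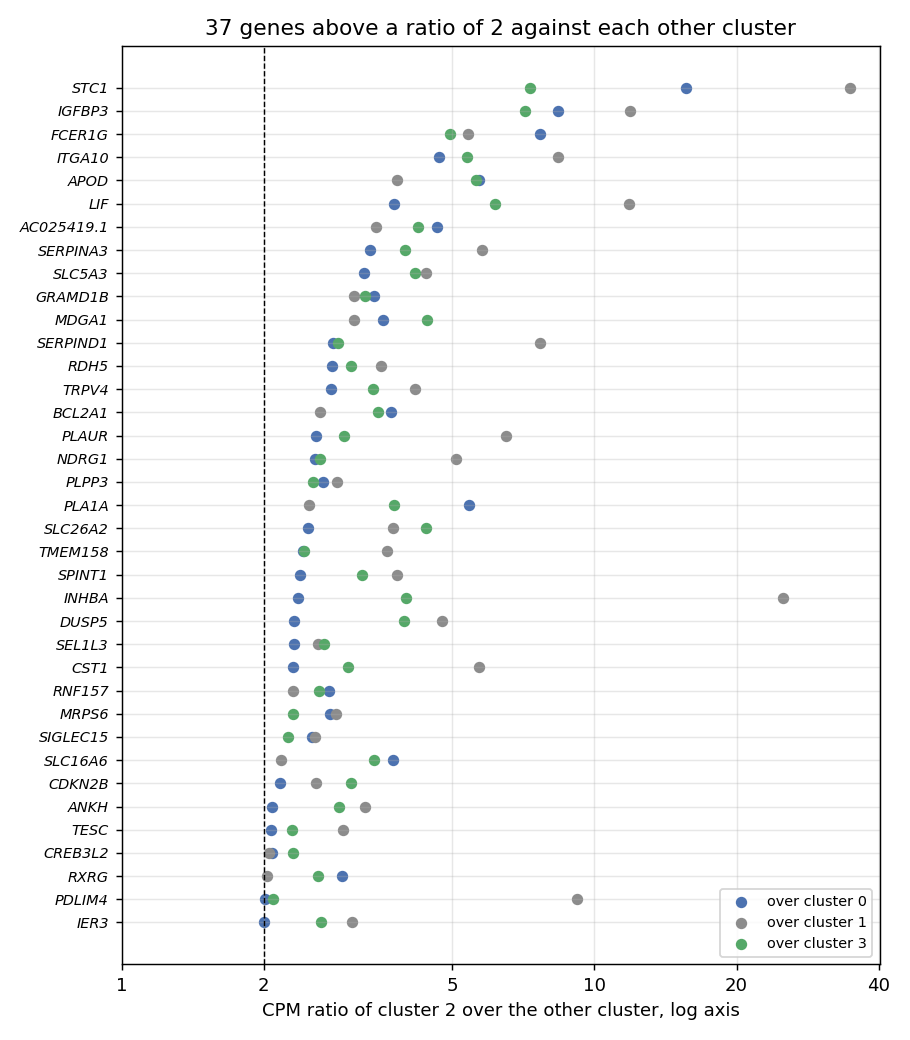
CPM ratios of cluster 2 over clusters 0, 1 and 3 (log axis) for the 37 genes above 2 against each, ordered by the smallest of the 3 ratios, with a dashed line at 2. STC1 and IGFBP3 lead with smallest ratios of 7.31 and 7.15, and INHBA and STC1 lie furthest from cluster 1.

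The phase calls moved with the cluster. By the deposited phase calls, 52.7% of cluster 2 cells were in G1 (42.0 to 63.3), against 35.6% in cluster 0, 32.5% in cluster 1 and 4.44% in cluster 3, and 20.9% were in G2M against 32.3%, 34.2% and 87.8%. The 37 genes were chosen on these same cells, so their levels within a phase are a description and no check on the cell cycle. More than 2 times the level of cluster 0 was reached by 33 of the 37 within G1, by 32 within S and by 24 within G2M. Cluster 3 had 4 G1 cells and was left out of this split. By the list of G2M genes, 0 of 27 measured members were above 2 and 2 below 0.5 against cluster 0, where 1.04% and 0.894% of all genes were, with a median of -0.60 on the log2 scale. CCNB1, the mitotic cyclin, stood at 71.8 CPM in cluster 2 and 153 CPM in cluster 0, and CDC20, which activates the anaphase-promoting complex, at 45.9 and 102 CPM. S-phase genes had a median of -0.20, with 0 of 23 past either limit.

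Against cluster 0, its neighbour among the primed cells, 72 of 6939 genes (1.04%) were above 2 and 62 (0.894%) below 0.5 in cluster 2. Among genes with a UMI in at least 25% of cluster 0 cells, the 8 lowest ratios were those of IFIT2, KRT81, OASL, CCN1, CCL2, CDC42EP1, DCT and IFIT3, of which IFIT2, OASL and IFIT3 are interferon-stimulated genes. IFIT2 stood at 5.27 CPM in cluster 2 and 102 CPM in cluster 0, 19.3 times lower. OASL stood at 4.65 and 31.0 CPM, IFIT3 at 32.6 and 146 CPM, CCL5, found in 20.5% of cluster 0 cells and so not ranked, at 10.1 and 87.4 CPM and CCL2, the monocyte chemokine, at 116 and 572 CPM. Of the list of chemokines and NF-kB targets, CCL2 and CXCL1 were the 2 of 10 measured members below 0.5 and 0 were above 2, with a median of -0.20, and CXCL8 stood at 159 and 175 CPM. Of the interferon list 7 of 31 measured members were below 0.5 and 0 above 2, with a median of -0.49. The most abundant members of that list went both ways: IFI6 stood at 1070 CPM against 860 CPM and BST2 at 615 CPM against 552 CPM, but ISG15 at 534 CPM against 699 CPM and IFITM3 at 135 CPM against 213 CPM. Against cluster 1 the interferon median was 0.30 with 1 of 25 below 0.5 (0.735% of all genes), and against cluster 3 it was -0.01 with 2 of 26 (0.471% of all genes).

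Of the YAP and TEAD list 3 of 13 measured members were below 0.5 (0.894% of all genes) and 0 above 2, with a median of -0.45. CCN1 (also CYR61), a matrix protein and common YAP target, stood at 22.9 CPM in cluster 2 and 120 CPM in cluster 0, while cluster 1 was at 20.8 CPM. AMOTL2, an angiomotin, stood at 16.9 and 42.6 CPM and CRIM1 at 12.4 and 27.8 CPM, while AMOTL1, another angiomotin, stood at 96.1 and 72.1 CPM. KRT81, a hair keratin, stood at 8.68 CPM in cluster 2, 107 CPM in cluster 0 and 162 CPM in cluster 3. Genes more than 2 times as high as in cluster 0 but not as in cluster 1 included LINC00520 (51.8, 10.4 and 44.1 CPM in clusters 2, 0 and 1), ENTHD1 (30.1, 6.37 and 27.9 CPM) and GDF15, a stress-induced TGF-beta family cytokine (153, 47.1 and 202 CPM).

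The receptors and surface proteins used to define primed cells did not single out cluster 2. AXL stood at 45.6 CPM (40.5 to 51.1) in cluster 2, 80.8 CPM in cluster 0 and 19.5 CPM in cluster 1, so its level was 1.77 times as high in cluster 0 as in cluster 2. NGFR, the nerve growth factor receptor, stood at 42.5, 58.1 and 9.39 CPM in the same order, and NT5E, the ectonucleotidase CD73, at 94.2, 84.2 and 35.9 CPM. EGFR was low, with 12 UMIs in cluster 2 (1.86 CPM, 0.961 to 3.25), 3.33 CPM in cluster 0 and 2.22 CPM in cluster 1. SERPINE2 was higher in cluster 2 than in both, at 3262 CPM in cluster 2, 1805 CPM in cluster 0 and 745 CPM in cluster 1. Every cell of every cluster had a UMI of it, so the difference lay in level. The lowest cell was at 487 CPM in cluster 2, 17.4 CPM in cluster 0, 49.7 CPM in cluster 1 and 298 CPM in cluster 3. FN1, fibronectin, stood at 1153, 1003 and 588 CPM. Of the 15 measured primed-state markers 0 were above 2 (1.04% of all genes) and 2 below 0.5 (0.894%) against cluster 0, with a median of 0.15. Against cluster 1, 10 of 14 were above 2 (2.51% of all genes) and 0 below 0.5 (0.735%), with a median of 1.05. That list, like every other gene list used here, was drawn up with earlier results of these data known and is no independent evidence.

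Against cluster 1, the larger of the 2 drug-susceptible clusters, 174 of 6943 genes (2.51%) were above 2 and 51 (0.735%) below 0.5. Melanocyte genes led the lower side. DCT, the dopachrome tautomerase of melanin synthesis, stood at 21.5 CPM in cluster 2, 466 CPM in cluster 1 and 97.1 CPM in cluster 0, and with CABLES1, DBNDD2 and IFIT3 it was one of the 4 genes below 0.5 against each other cluster, of 6051 with at least 20 CPM and a UMI in 25% of cells in each of these (0.0661%). MLANA, the melanoma antigen MART-1, stood at 3.26 CPM in cluster 2, 65.2 CPM in cluster 1 and 2.27 CPM in cluster 0. ABCB5, an ABC transporter, stood at 7.13 and 57.2 CPM in clusters 2 and 1, TRIM63 at 5.74 and 35.3 CPM and SLC45A2, a melanosome transporter, at 9.77 and 38.6 CPM. Other pigment genes were not lowest in cluster 2. PMEL, the melanosome matrix protein, stood at 376 CPM in cluster 2, 185 CPM in cluster 0 and 969 CPM in cluster 1, and TYR, tyrosinase, was highest in cluster 2, at 91.3 CPM against 51.9 and 70.4 CPM. MITF, at 258 CPM (246 to 271), lay between cluster 0 at 188 CPM and cluster 1 at 420 CPM. In cluster 3 it stood at 220 CPM, below cluster 2. SOX10 was close to level at 187, 192 and 215 CPM in clusters 2, 0 and 1. The melanocyte list had a median of 0.46 against cluster 0, with 1 of 15 above 2 (1.04% of all genes) and 1 below 0.5 (0.894%). Against cluster 1 its median was -0.74, with 0 of 20 above 2 (2.51%) and 8 below 0.5 (0.735%).

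Of the list of chemokines and NF-kB targets 2 of 10 measured members were above 2 (2.51% of all genes) and 0 below 0.5 (0.735%) against cluster 1. Of the gp130 cytokine list 2 of 8 were above 2, IL11 and the marker LIF, which named the cluster, and 1 below 0.5. IL11, a gp130 cytokine like LIF, was at 20.5 CPM in cluster 2, 28.8 CPM in cluster 0 and 1.70 CPM in cluster 1, and CXCL8 at 159, 175 and 23.3 CPM, while CXCL1 stood at 64.9, 173 and 85.3 CPM. CEMIP, which degrades hyaluronan, stood at 36.4, 19.4 and 5.06 CPM. Of the integrin list 5 of 13 measured members, the marker ITGA10 among them, were above 2 against cluster 1 (2.51% of all genes) and 0 below 0.5, with a median of 0.87. Beside ITGA10, the fibronectin receptor subunit ITGA5 stood at 60.6 CPM in cluster 2, 16.0 CPM in cluster 1 and 36.6 CPM in cluster 0, and ITGB3 at 60.8, 23.6 and 34.1 CPM. ITGA4, ITGA6 and ITGA7 were near level with cluster 1, at ratios of 1.07, 1.08 and 0.959.

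Against cluster 3, the small drug-susceptible cluster, of 6789 genes 134 (1.97%) were above 2 and 32 (0.471%) below 0.5 in cluster 2. Cluster 3 is drug-susceptible by the deposited name, but these 3 primed-state genes lay above their level in cluster 1: AXL stood at 53.2 CPM in cluster 3, NGFR at 30.3 CPM and NT5E at 72.1 CPM. CCL2 stood at 380 CPM in cluster 3 and at 116 and 44.3 CPM in clusters 2 and 1. Of the primed-state list 2 of 14 measured members were above 2 and 0 below 0.5 in cluster 2 against cluster 3, with a median of 0.51. LRRC75A stood at 330 CPM in cluster 3 and at 33.0 CPM in cluster 2, with 41.1 and 43.5 CPM in clusters 0 and 1, and C1orf56 at 125 CPM against 19.2, 18.7 and 17.5 CPM.

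Lists for metabolism, stress and secreted factors are given next by their counts and medians, to be read against 1.04% of all genes above 2 and 0.894% below 0.5 against cluster 0. The hypoxia and glycolysis list was higher by a small step, with a median of 0.36 against cluster 0, 0.38 against cluster 1 and 0.53 against cluster 3, and 2 of 27 measured members above 2 and 0 below 0.5 against cluster 0. These 2 were NDRG1 and PFKFB4, a regulator of glycolysis, at 66.2 CPM in cluster 2 and 29.3 CPM in cluster 0, while VEGFA stood at 40.9 and 42.4 CPM. Serpins and acute-phase genes had a median of 0.58 against cluster 0, with 2 of 7 above 2 and SAA1, serum amyloid A, below 0.5 at 12.6 CPM against 38.8 CPM. ERK output genes had a median of 0.29 with 2 of 16 above 2 and 1 below 0.5. Matrix proteases and inhibitors had a median of 0.29, with CTSL, cathepsin L, at 228 CPM against 90.9 CPM the 1 of 10 above 2. The TGF-beta and activin list was near level against cluster 0, with a median of 0.03, and the 2 of 17 members above 2 were INHBA and GDF15. In the IGF list IGFBP3 and STC1, markers of the cluster, were the 2 of 10 above 2, IRS2, an adaptor of the insulin and IGF receptors, was below 0.5 at 35.8 CPM against 79.9 CPM, and the median was 0.00. Over all lists together 19 of 381 measured genes were above 2 and 25 below 0.5 against cluster 0, with the 7 markers among the 19. PLAUR, DUSP5, IER3, NDRG1 and CDKN2B, also among them, were leading genes chosen on these same values.

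**Figure D4:**
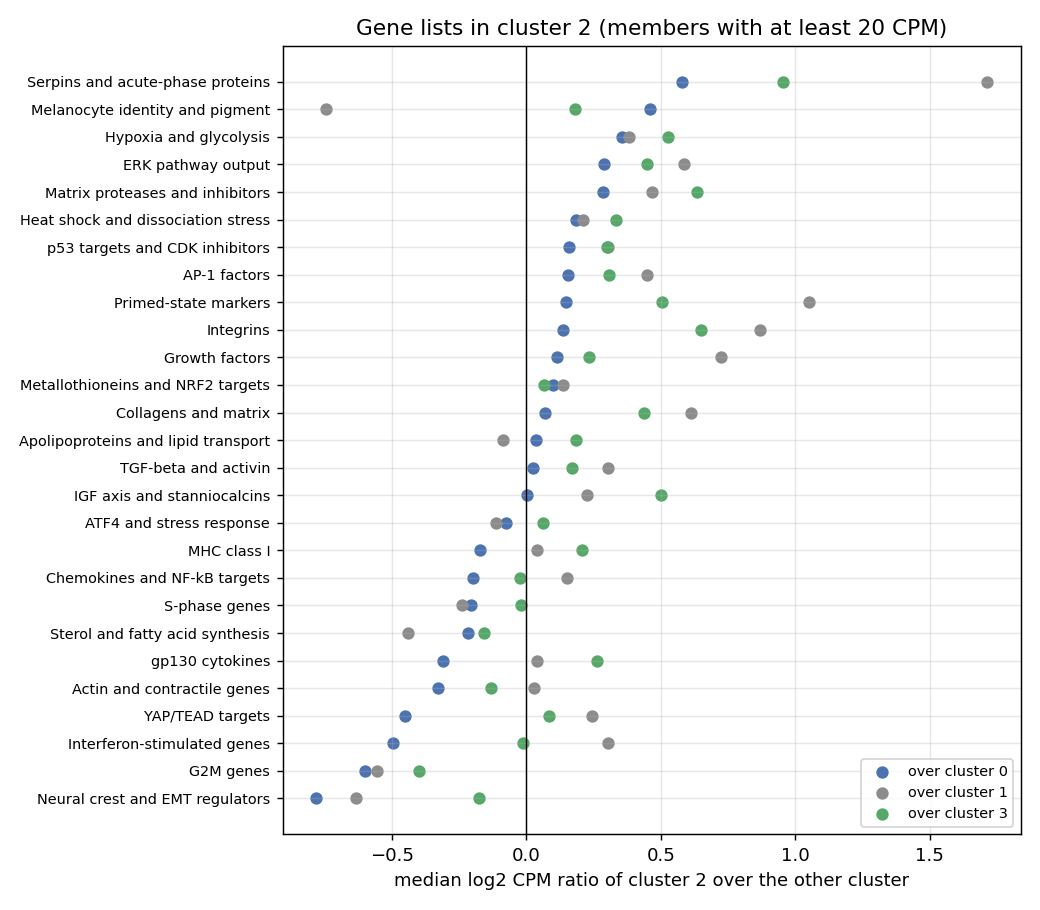
Median log2 CPM ratio of cluster 2 over clusters 0 (blue), 1 (grey) and 3 (green) for 27 gene lists, over members with at least 20 CPM in either cluster. Interferon and YAP/TEAD lists lie left of 0 against cluster 0 and right of 0 against cluster 1, while the hypoxia list lies right of 0 against all 3.

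Both deposited scores had their highest median in cluster 2. The EMT UCell score, a rank score between 0 and 1 that the authors computed per cell, had a median of 0.162 in cluster 2, 0.157 in cluster 0, 0.136 in cluster 1 and 0.148 in cluster 3. The TGF-beta UCell score had medians of 0.123, 0.114, 0.0967 and 0.113. Against the SD over cells, 0.0177 and 0.0215 in cluster 2, the differences from cluster 0 were small. The gene list of neural crest and EMT regulators went the other way, with a median of -0.78 on the log2 scale against cluster 0. Of its 7 measured members 0 were above 2 (1.04% of all genes) and 2 below 0.5 (0.894%). Its median was -0.63 against cluster 1 and -0.17 against cluster 3.

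In the other line, WM989, the 7 genes split. Cells called primed there were compared with drug-susceptible cells as a description, since those states are clusters too. STC1 stood at 341 CPM in the primed cells of WM989, with 2.68 CPM in the drug-susceptible ones, so it was 127 times as high, with ratios of 120 and 113 in the cells marked r1 and r2. INHBA stood at 7.98 and 0.263 CPM, LIF at 20.4 and 0.836 CPM, IGFBP3 at 8.73 and 0.453 CPM and ITGA10 at 57.2 and 15.3 CPM. APOD went the other way, with 0.609 CPM on the primed side and 6.64 CPM on the other, in r1 as in r2. SERPINA3 was close to absent in this line, with 3 UMIs in all primed cells and a ratio of 0.0715 (0.0145 to 0.214). These 3 UMIs were in r2, where the ratio was 0.455 (0.0844 to 1.61), and the count was 0 in r1. Of the 37 leading genes of cluster 2 all were in that table and 17 had at least 20 CPM in either state. Of these 12 were above 2 and 2 below 0.5, where 10.4% and 6.55% of all such genes were. TMEM158, a RAS-induced membrane protein, stood at 1541 CPM in primed WM989 cells against 10.8 CPM, SLC16A6 at 96.3 and 2.81 CPM and PLAUR at 215 and 16.0 CPM. The 2 below 0.5 were RXRG, at 1.34 and 20.1 CPM, and SLC26A2, at 17.8 and 38.4 CPM. Of the 4 genes below 0.5 in cluster 2 against each other cluster, 3 had at least 20 CPM here. DCT, at 19.2 and 517 CPM, and CABLES1, at 15.4 and 68.7 CPM, were lower in primed cells. IFIT3 was higher, at 73.7 and 21.7 CPM. Among the 3 primed WM989 clusters STC1 ranged from 118 to 531 CPM, and in the drug-susceptible clusters from 1.44 to 3.37 CPM.

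The treated WM989 libraries gave the only test of these genes over samples, since the WM983B clusters did not use them. Each of the 4 conditions had 2 libraries of 3692 to 6273 cells and about 70239700 to 122421000 UMIs, called r1 and r2. The methods describe these as parallel replicates, each from its own well split over the plates, but the sample labels call one library of each condition Mix and the other Primed, and which of these is r1 was not given. Counts were summed over all cells of a library and fitted for 18389 genes with edgeR's quasi-likelihood test with treatment and replicate as terms, and the 3 treatments share their Control libraries. In such sums, more cells in a state and more RNA per cell cannot be told apart.

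After TGFB1, a ligand of the TGF-beta receptors, most leading genes of cluster 2 were higher. Of the 37 genes 35 were in the fit, and 22 of these (62.9%) rose and 5 (14.3%) fell at an adjusted p under 0.05, against 16.3% and 12.7% of all genes. Of the 6553 genes of the fit that cluster 2 itself expressed, 17.5% rose and 17.5% fell. The median log2 change of the 35 was 0.72, against 0.01 over all genes.

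By gene, the response to TGFB1 covered 5 of the 7 markers. INHBA stood at 0.230 and 0.187 CPM in the Control libraries and at 2.38 and 1.74 CPM after TGFB1. Its log2 change was 3.28 ± 0.24 (SE from the fit, n = 2 libraries a condition, edgeR adjusted p = 3.3e-10). Every SE in this text is the log2 change divided by the square root of the test's F statistic. It is not a spread over the 2 libraries. SERPINA3 stood at 0.0768 and 0.312 CPM, then 1.44 and 2.32 CPM, a log2 change of 3.26 ± 0.25 (edgeR adjusted p = 7.84e-10). Both stayed rare in WM989, with 190 and 148 INHBA UMIs in the TGFB1 libraries. STC1 rose from 9.95 and 12.7 CPM to 24.0 and 43.6 CPM, a log2 change of 1.52 ± 0.12 (edgeR adjusted p = 1.03e-09). LIF stood at 1.40 and 3.27 CPM in Control and at 1.95 and 5.98 CPM after TGFB1, so the groups overlapped while each replicate rose, by 0.72 ± 0.14 (edgeR adjusted p = 0.000512). APOD rose by 0.62 ± 0.09 from 12.5 and 10.5 CPM to 18.3 and 17.4 CPM (edgeR adjusted p = 1.14e-05). IGFBP3, at 0.205 and 0.274 CPM in Control and 0.275 and 0.436 CPM after TGFB1, and ITGA10, at 37.4 and 28.4 CPM and then 34.9 and 34.7 CPM, did not pass, with log2 changes of 0.55 ± 0.31 and 0.08 ± 0.08. LIF lost its call without the replicate term (log2 change 0.75) and without the TGFB1 library r2 (0.34).

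**Figure D5:**
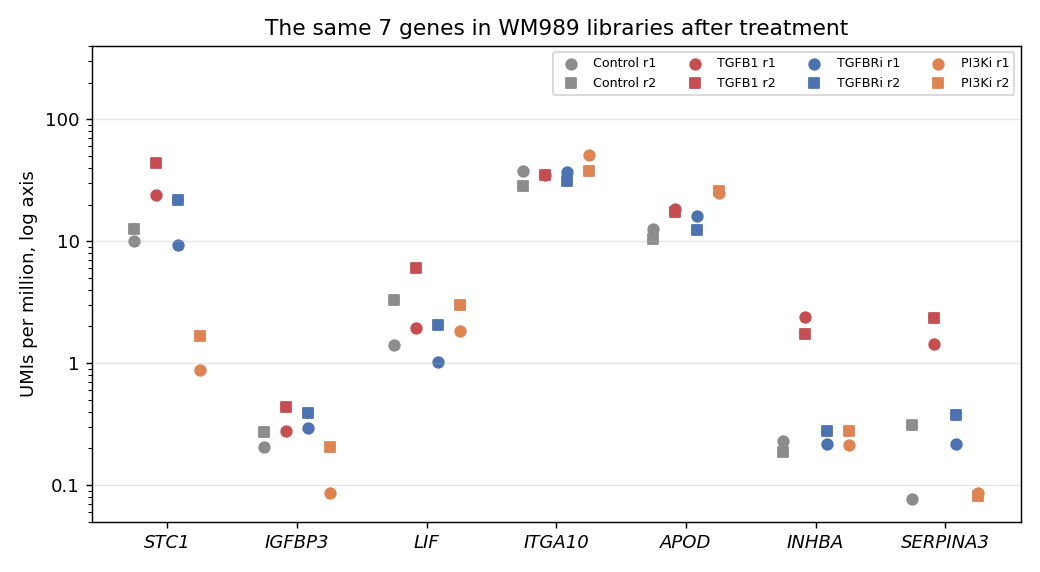
Levels of the 7 markers (CPM, log axis) in the 8 WM989 libraries, 2 for each condition, with circles for r1 and squares for r2. INHBA and SERPINA3 lie higher in both TGFB1 libraries than in the other 6, and STC1 lies lowest in both PI3Ki libraries.

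Other leading genes that rose after TGFB1 were MDGA1 (log2 change 3.77 ± 0.35), SIGLEC15 (2.74), CST1 (1.89), TMEM158 (1.85), FCER1G (1.55), NDRG1 (1.36) and PLAUR (1.30). MDGA1 was counted 2 and 10 times in the Control libraries and 60 and 114 times after TGFB1. SERPINE2 rose from 188 and 243 CPM to 1048 and 860 CPM, and DCT fell by 0.92 on the log2 scale. Of the genes also low in cluster 2, CABLES1 fell by 0.51 and IFIT3 rose by 0.51, while DBNDD2 did not pass (0.18). Of the primed-state genes described above, AXL rose by 3.72, FN1 by 4.42, EGFR by 1.84 and NT5E by 0.89, while NGFR did not pass, with a log2 change of -0.14. PLA1A, RXRG, SLC16A6, CDKN2B and RNF157 went against the rest: PLA1A fell by 1.23 on the log2 scale, RXRG by 0.99, SLC16A6 by 0.83, CDKN2B by 0.58 and RNF157 by 0.37.

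Inhibition of PI3 kinase split the leading genes, and inhibition of the TGF-beta receptor touched few. After PI3Ki 9 of the 35 rose and 8 fell, where 5.83% and 6.83% of all genes did and 7.34% and 10.0% of those that cluster 2 expressed, and the median change was 0.02. Without the replicate term these counts were 5 and 3, and the share of all genes in that fit was not computed. STC1 fell to 0.883 and 1.67 CPM, a log2 change of -3.07 ± 0.16 (edgeR adjusted p = 2.48e-11), whereas APOD rose to 24.7 and 25.8 CPM, by 1.25 ± 0.09 (edgeR adjusted p = 2.26e-09), and ITGA10 rose by 0.52 ± 0.08 (edgeR adjusted p = 6.91e-05), a call that was lost without the replicate term at the same log2 change of 0.52 (edgeR adjusted p = 0.0928). The other markers did not pass, with changes of -0.55 for IGFBP3, 0.17 for LIF, 0.41 for INHBA and -1.18 for SERPINA3, which passed without the Control library r1 (-1.57). NDRG1 and TMEM158 fell by 1.16 and 1.07 on the log2 scale and CST1 rose by 2.50. Primed-state genes fell as well: NGFR by 2.51, AXL by 2.23, FN1 by 1.74, EGFR by 0.93, NT5E by 0.49 and SERPINE2 by 0.43. After TGFBRi 3 of the 35 rose and 2 fell, where 1.09% and 1.45% of all genes did and 1.36% and 2.11% of those that cluster 2 expressed, and the 7 markers all missed the threshold, with changes between -0.56 for LIF and 0.64 for SERPINA3. STC1 stood at 9.95 CPM in Control r1 and 12.7 CPM in Control r2. After TGFBRi it stood at 9.22 CPM in r1 and 21.6 CPM in r2, so only r2 rose. STC1, at 0.38, passed without the Control library r1 (0.70) or the TGFBRi library r1 (0.65), and APOD without the TGFBRi library r2 (0.45). LIF passed without either TGFB1 library, the PI3Ki library r1 or the TGFBRi library r1 (-0.56 to -0.63), and with the 4 libraries of Control and TGFBRi alone STC1, LIF and APOD all passed. STC1, LIF and APOD also passed with all libraries and no filter beyond 1 count, at 0.39, -0.56 and 0.32. In the main fit the 5 leading genes called after TGFBRi were SLC16A6 (0.62), RNF157 (0.55) and RXRG (0.33), which rose, and CST1 (-0.79) and PLAUR (-0.39), which fell. Without the replicate term the counts were 1 and 0, and the share of all genes in that fit was not computed. Of the primed-state genes FN1 fell by 0.59 after TGFBRi, and AXL, NGFR, NT5E, EGFR and SERPINE2 did not pass.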

How the data were processed

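Cells of 2 human melanoma lines, WM983B and WM989, were measured by single-cell RNA-seq. The authors made the deposited UMI counts with Cell Ranger on hg38, whose version and annotation are not given in the sources used here, and filtered cells in Seurat by detected genes, which also served to remove doublets, and by mitochondrial content. No doublet caller was run here. The percent of mitochondrial UMIs, the UCell, S and G2M score values, the phases, the clusters and the state names were taken as the authors deposited them. Gene positions came from GENCODE 44 and promoters from RefSeq.

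UMIs were summed per cluster and scaled to CPM. A gene counted as above or below at a ratio over 2 or under 0.5 with at least 20 CPM in either cluster. CPM carry exact Poisson intervals, shares exact binomial (Clopper-Pearson) intervals and ratios exact conditional intervals, all at 95%. A cluster at 0 was set to 3 counts in ratios. The cluster 2 total of 6451393 UMIs makes 3 counts 0.465 CPM. The thinning to 30000 UMIs left out 0 cells. Python 3.11.15, scipy 1.17.1, scanpy 1.11.5 and igraph 0.11.9 were used, with 30 principal components and 20 neighbours for the clustering.

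For the WM989 treatments, counts summed per library were fitted in R 4.3.3 with edgeR 4.0.16 (quasi-likelihood, TMM, filterByExpr, 3 residual degrees of freedom) and p-values adjusted by Benjamini and Hochberg over 18389 genes. Treatment and replicate were the terms, because the methods split each well over the 4 plates, and in all 6 pairs of treatments the same-numbered libraries deviated together (correlations 0.325 to 0.549). That the libraries of a condition were separate cultures rests on the methods. DESeq2 1.42.0 was an alternative. The fits were tested on simulated data.

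Named genes were the 7 markers, 8 state genes, the 12 highest and 8 lowest ratios per comparison (with a UMI in 25% of the cells of the higher cluster) and up to 4 members per list, and the 37 leading genes and the other genes in the text were named after their values were seen. The members and lists were chosen with earlier results of these data known. ATAC-seq peaks were not used here.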

Additional observations from a re-analysis of the deposited data

How the results depend on the processing

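Recomputing the ratios of the 7 markers gave 42 values against each of clusters 0, 1 and 3, of which 0 reversed and 40, 42 and 42 stayed above 2, the lowest being 1.61 for INHBA against cluster 0. Counts of genes moved with the minimum level: against cluster 0, 110 above and 107 below at 10 CPM and 41 and 27 at 50 CPM, with 27 list genes past either limit in place of 44. Against cluster 1 they were 91 below at 10 CPM and 94 above and 23 below at 50 CPM, and against cluster 3 211 and 64 at 10 CPM and 64 and 19 at 50 CPM. With G1 cells alone they were 133 below against cluster 0, 268 above and 209 below against cluster 1, and 831 and 387 against cluster 3, which has 4 G1 cells. Genes below cluster 3 numbered 50 after thinning and 53 when the 100 most abundant genes were left out of the total. The growth factor median against cluster 1 turned from 0.73 to -0.47 at 50 CPM. The new cluster that held most cluster 2 cells took 23.7% and 19.5% of the library at resolutions 0.5 and 1, and 9.45% and 17.7% with the cell cycle scores removed, a choice made after seeing the data, as were the splits by phase and the removal of the highest cell.

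In the WM989 fits the counts moved with the replicate block: without it 18 leading genes rose and 5 fell after TGFB1, 5 and 3 after PI3Ki and 1 and 0 after TGFBRi. The share of all genes called was computed for the main fit only. The counts of the other fits in this paragraph therefore cannot be set against such a share. After TGFBRi 1 fell by DESeq2, 5 rose and 6 fell with no filter, and 5 rose with the 4 libraries alone. Leaving out each library in turn gave 18 to 22 rising after TGFB1, 1 to 3 falling after TGFBRi and 5 to 11 rising after PI3Ki. Over the same fits the log2 change of ITGA10 ran from -0.073 to 0.23 after TGFB1 and from -0.017 to 0.16 after TGFBRi, INHBA from -0.080 to 0.58 after TGFBRi and from -0.063 to 0.71 after PI3Ki, and LIF from -0.029 to 0.52 after PI3Ki. None of these 5 was called with all libraries. The cause of these shifts was not tested.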
